A study of Homo sapiens with 24 samples.

Results

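The transcriptional response to a miR-544a mimic was examined in MDA-MB-231, an established human breast cancer cell line of mesenchymal character. Cells grown in DMEM with 10% fetal calf serum were transfected with 50 nM of a synthetic mimic of miR-544a or with the same dose of a non-targeting mimic (NT control), and total RNA was taken at 48 h and hybridised to Illumina bead arrays. Each group was measured on 2 arrays. Nothing in the labels tells whether the duplicates were grown apart. The p-values therefore cover the spread between duplicate arrays alone, which may be technical and was pooled over all 12 groups measured. The 2 groups belong to a series of 24 arrays in 12 groups, in which 5 other mimics and 5 inhibitors, each on 2 arrays, were introduced into the same cells. Mimic and inhibitor were both used for miR-655-3p and miR-410, and likewise for miR-369-3p and miR-135a. The remaining mimic was that of miR-127-5p. The remaining inhibitor was directed at miR-544a itself, so the inhibitor reference includes it. All groups were transfected at the same dose, and 1 cell line was studied.

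The features described are the 20386 of 47309 probes that were detected (detection p under 0.05 against the negative probes of the same array) on both arrays of the NT control or on both arrays of the miR-544a mimic. They stand for 11688 of the 20042 genes named on the array. All of them are among the 22803 probes detected on both arrays of any group, over which limma was fitted and its p-values were adjusted. A call required a fold of 1.4 or more in addition to an adjusted p under 0.05. Fold changes are log2 of mimic over control, and levels are normalised signals per array on a linear scale.

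MicroRNAs are short RNAs that guide Argonaute proteins to messenger RNAs, mostly through pairing of the seed, bases 2 to 8 from the 5′ end, and that lower the stability and translation of those messengers. One microRNA can act on many transcripts at once, so a mimic changes both direct targets and the genes downstream of them. miR-544a is encoded in the imprinted microRNA cluster on the long arm of chromosome 14, together with the other 3 microRNAs printed here, whose mimics were part of the same series. The mature sequences (RefSeq, GRCh38.p14) are shown because the seed decides which messengers a mimic can pair with, and the seed is in capitals:
hsa-miR-544a: aUUCUGCAuuuuuagcaaguuc
hsa-miR-127-5p: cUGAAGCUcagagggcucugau
hsa-miR-369-3p: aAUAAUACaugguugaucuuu
hsa-miR-655-3p: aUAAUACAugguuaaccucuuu
The miR-544a sequence lies on the plus strand at chr14:101048712-101048733. The RefSeq table names 2370 mature human microRNAs, and part of these were left out of the comparison of seeds. Among those compared, no other carries the same 7 seed bases. The messenger letters that pair with these bases are TGCAGAA. Seed matches in messengers were not counted here.

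The cells' identity was checked first. Of 6 genes known to be high in MDA-MB-231, all (VIM, CD44, AXL, CAV1, MSN and PLAU) were detected on the 4 arrays. ESR1, CDH1, KRT5 and the leukocyte gene PTPRC were detected on none and PGR on 1. GATA3 and EPCAM, taken as low in this line, went against this and were detected on all 4, with EPCAM at 563 and 487 in the control and 633 and 628 with the mimic. The endothelial gene PECAM1 (37.7 to 43.0) and the liver gene ALB (78.4 to 132) were also detected on all 4, and neither was called. The 4 arrays had 20165 to 21286 detected probes and median signals of 113.5 to 123.1.

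Replicate 2 of the miR-544a mimic stands apart from replicate 1. Over all tested probes the 2 mimic arrays correlated at r = 0.980, the lowest of the 12 groups, and the 2 control arrays at 0.997. On replicate 2, 380 probes were lower than on replicate 1 by over 1.5 on the log2 scale and 3 were higher by as much, where the other 11 groups had 0 to 49 such probes in either direction. An ALDOA probe read 5329 on replicate 1 and 243 on replicate 2 against 4566 and 4524 in the control, and an ACTG1 probe read 7663 and 375. Over the 380 probes, replicate 2 had a median of -2.09 against the median of the 24 arrays and replicate 1 one of 0.02. Other probes for the 259 genes among them had a median difference of only -0.11. Of the 380 probes, 93 were called lower and none higher. Results without replicate 2 are therefore given for many genes and lists, but not for every list whose counts changed without it.

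**Figure D1:**
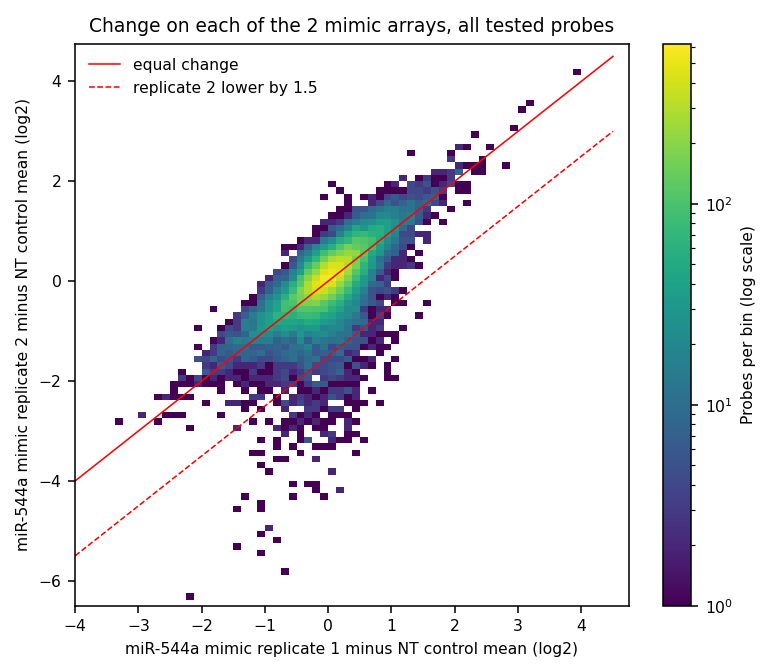
Change on each miR-544a mimic array against the mean of the 2 NT control arrays (log2), replicate 1 on the horizontal and replicate 2 on the vertical axis, with 22803 probes counted in small square bins and coloured by number on a log scale. Most probes lie along the line of equal change, and a cloud of probes lies below the dashed line, where replicate 2 is lower by over 1.5.

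With the miR-544a mimic, 2235 of the 20386 probes were lower, 2558 were higher and 15593 were not called. Over all 22803 probes tested the shares called were 9.8% lower and 11.2% higher, with 21% called in either direction and 8519 probes at an unadjusted p under 0.05. Among the 17357 probes detected on all 4 arrays, 1928 were lower and 2306 higher. Detection was lost on both mimic arrays for 499 probes, of which 113 were called lower, and was gained on both for 444, of which 141 were called higher. These probes were included only through the group in which they were detected. The direction of their calls was thus set by that choice and is not a result. Both mimic arrays lay below both control arrays for 28.4% of all probes tested and above them for 32.7%. Most changes were modest: 716 probes were lower and 601 higher by at least 2-fold, and 47 and 35 by at least 4-fold. Without replicate 2 of the mimic, 1778 probes were lower and 1825 higher, of which 1507 and 1591 were calls of the full comparison. With every gene represented by its brightest tested probe (12529 genes), 1338 genes (10.7%) were lower and 1753 (14%) higher, with a median log2 fold change of 0.05.

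The strongest repression was of LPAR1, a receptor for lysophosphatidic acid that drives cell migration. It read 648 and 653 in the control and 66.3 and 91.2 with the mimic (log2 fold change -3.06, SE 0.14, limma adjusted p = 5.20e-10). Genes ranked here had to have both mimic arrays on the same side of both control arrays. For LPAR1 the mimic arrays also lay below the 10 arrays of the other mimics (539.8 to 1309) and the 10 inhibitor arrays (408 to 585). CDK6, a kinase that opens the way into S phase, read 3299 and 3180 against 436 and 507 (-2.78, SE 0.10, adjusted p = 6.73e-11), likewise below every other array of the series. The nuclear import receptor IPO5 went from 485 and 450.4 to 73.0 and 64.1. FAM107B, the transcriptional coactivator SUB1 and the forkhead factor FOXQ1 fell by 2.61, 2.55 and 2.47 on the log2 scale. KISS1, the precursor of a peptide known for suppressing metastasis, read 130.3 and 156 in the control and 29.6 and 22.8 with the mimic. It was detected on 1 of the 2 mimic arrays, so its direction is not a result.

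CGNL1, a protein of the junctional plaque, was detected on neither mimic array and was at least 4.14-fold lower. This fold, like every other "at least" value, sets the brighter group against the level at the detection threshold. MYLK, the myosin light chain kinase that drives actomyosin contraction, fell by 2.25 on the log2 scale (374 and 345 against 67.7 and 83.7). The small GTPases RAP2A and RAB8B fell by 2.12 and 2.09, the planar polarity protein PRICKLE1 by 2.24, the glycolipid transfer protein GLTP by 2.06 and the mitochondrial ribosomal protein MRPL9 by 2.16. In each of these 7 genes both mimic arrays also lay below all arrays of the other 10 groups.

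In 6 of the 25 lowest genes the 2 mimic arrays lay far apart, with replicate 2 the lower. AP1S1, a subunit of a clathrin adaptor, read 735 on replicate 1 and 80.7 on replicate 2 against 2057 and 1918. ALYREF, an mRNA export adaptor, read 211 and 19.9 against 468 and 382, the chromatin reader BRD3 324 and 63.8 against 660.0 and 671, and the growth factor BMP4 245 and 35.5 against 422 and 396. The other 2 were MRPS34 (169 and 37.6) and the lipase MGLL (56.1 and 20.8). ALYREF and MGLL were detected on 1 of the 2 mimic arrays. Without replicate 2, 22 of the 25 genes were still called and ALYREF, BRD3 and BMP4 were not. ALYREF and BMP4 also lost their call without either control array. In a fit of the 4 arrays alone, AP1S1, ALYREF, BRD3 and BMP4 were not called. Against the other mimics all 25 were called lower, and against the inhibitors 24 were. These comparisons use the same mimic arrays on which the genes were ranked.

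The largest increase was in HMOX1, heme oxygenase, which degrades heme and is induced by oxidative stress. It read 180.0 and 166 in the control and 2708 and 3035 with the mimic (log2 fold change 4.05, SE 0.19, limma adjusted p = 9.37e-10). The highest of the other mimic arrays read 287 and the highest inhibitor array 678. TAGLN3, a calponin family protein, was at least 9.49-fold higher, ACTG2, the enteric smooth muscle actin, at least 7.33-fold higher and MMP9, a gelatinase that degrades basement membrane, at least 6.17-fold higher, none of them detected on a control array. ACTG2 read 176 and 217 with the mimic and 18.8 to 21.1 on the arrays of the other 10 groups. The matrix glycoprotein tenascin C (TNC) rose from 294 and 319.7 to 1461 and 2353. CDC42EP5, an effector of the GTPase CDC42, rose by 2.56 on the log2 scale, the membrane channel protein TTYH3 by 2.40, the serine protease PRSS3 by 2.40 and the actin-bundling protein LCP1 by 2.14. CDC42EP5 and PRSS3 were detected on 1 of the 2 control arrays, so their direction is not a result. Against the other mimics and the inhibitors TTYH3 rose by only 0.96 and 1.17, and PRSS3 by 1.55 and 1.63. CDC42EP5 rose by 2.45 and 2.47 and LCP1 by 2.33 and 2.57 against them. These comparisons use the same mimic arrays on which the genes were ranked. All 25 highest genes were called without replicate 2 and against both the other mimics and the inhibitors.

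**Figure D2:**
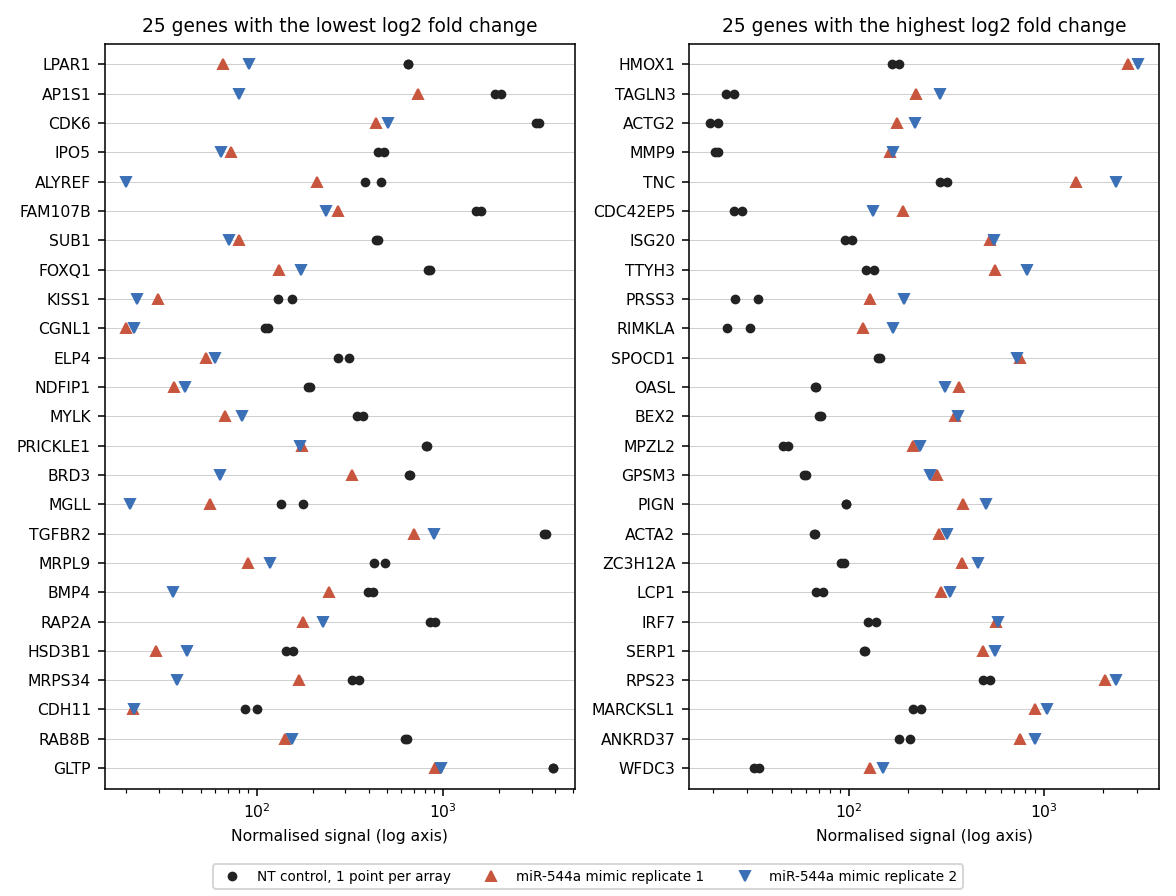
Normalised signal (log axis) on each of the 4 arrays for the 25 most repressed (left) and the 25 most raised genes (right), among called genes detected on both arrays of the brighter group. Black points are the NT control arrays and triangles the mimic arrays. The 50 genes were chosen so that the 2 groups do not overlap. In AP1S1, ALYREF, BRD3, MGLL, BMP4 and MRPS34 replicate 2 of the mimic lies well below replicate 1.

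The study's 4 candidate targets, which were chosen on these arrays with the help of predicted binding sites, differed among their probes. Among the 4, the paper places miR-544a sites in TGFBR2 and in CILK1, which it calls ICK. It reports that miR-544a lowered the reporter signal of both, and that mutating the TGFBR2 sites abolished this. For ROCK2 and CDH11 it names sites of other microRNAs in the series and none of miR-544a. TGFBR2, the type II receptor that binds TGF-beta, read 3499 and 3598 in the control and 697 and 902 with the mimic on its brightest probe (-2.16, SE 0.14), and a further probe had a log2 fold change of -2.41. On the other mimics' arrays TGFBR2 ranged from 984 to 5412 and on the inhibitor arrays from 1389 to 1905, and it was called lower against both (limma adjusted p = 7.65e-08 and 2.37e-06). ROCK2, a kinase that raises contractility, had a log2 fold change of -0.25 on its brightest probe (limma adjusted p = 0.0596) and was not called. A dimmer ROCK2 probe (429 and 367 against 209 and 207) had one of -0.93 and was called. That dimmer probe had 0.07 against the other mimics and -0.33 against the inhibitors, neither called. CILK1, a kinase of the primary cilium, fell by 0.84 against the control on its brightest probe, which against the other mimics was higher by 0.61. A dimmer CILK1 probe (105 and 96.4 against 42.3 and 28.2) fell by 1.54 against the control and was also lower against the other mimics, by 0.76. CDH11, a mesenchymal cadherin, was detected on neither mimic array and was at least 3.42-fold lower than the control. It read 21.6 and 21.9 with the mimic, 27.3 to 53.3 with the other mimics and 21.4 to 45.0 with the inhibitors. Against these groups it was lower by only 0.84 and 0.57 on the log2 scale, both called.

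Genes were then grouped into 51 lists by function, which hold 2407 tested genes. Each list is described by its counts, which are to be read against the 10.7% of all genes called lower and the 14% called higher. The lists overlap in some genes, and no test of a list was made.

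**Figure D3:**
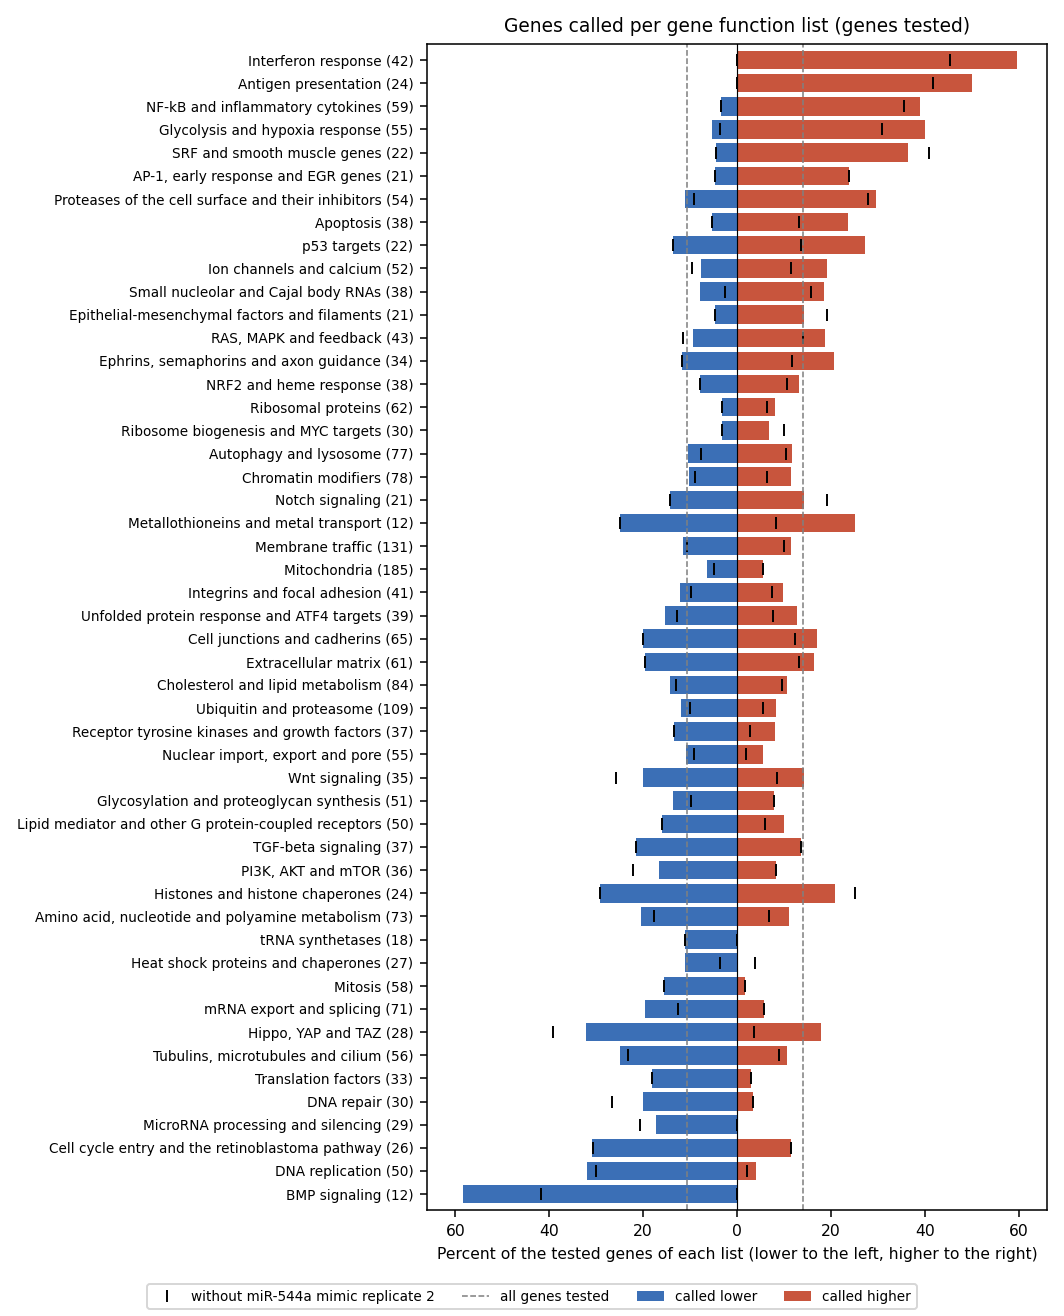
Percent of the tested genes of each of 50 function lists that were called lower (blue, to the left) or higher (red, to the right) with the miR-544a mimic against the NT control. Dashed lines mark the 10.7% and 14% of all 12529 genes, black ticks give the shares without replicate 2 of the mimic, and the number of tested genes stands in brackets.

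Interferon-induced genes encode the antiviral machinery that cells switch on after sensing foreign RNA or interferon. Of 42 tested, 25 were higher and none lower, with a median log2 fold change of 0.69 against 0.05 over all genes, and 19 were higher without replicate 2. ISG20, an exonuclease that degrades viral RNA, read 95.2 and 103 in the control and 531 and 554 with the mimic (2.45, SE 0.11, limma adjusted p = 5.20e-10). OASL rose from 67.5 and 66.9 to 367 and 312, IRF7, the factor that amplifies interferon transcription, from 124 and 137 to 565 and 583, and IFIT2, which binds foreign RNA, from 419 and 388 to 1559 and 1569. In each of the 4 genes both mimic arrays also lay above all arrays of the other 10 groups. Against the other mimics, where 11.4% of all genes were lower and 14.2% higher, 25 of the list were higher and 1 lower. Against the inhibitors, where 10.5% of all genes were lower and 12.6% higher, 27 were higher and none lower.

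Antigen presentation genes moved in the same direction, with 12 of 24 higher and none lower (median 0.46; 10 without replicate 2). CD74, the invariant chain that escorts class II molecules, rose from 785 and 814 to 2607 and 3586. HLA-DMB and HLA-DMA, which load peptides onto class II molecules, rose by 1.90 and 1.46 on the log2 scale. The cysteine protease CTSS, which trims the invariant chain, rose by 1.10 and was detected on 1 of the 2 control arrays. CD74, HLA-DMB and HLA-DMA lay above all arrays of the other 10 groups as well.

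NF-kB is held in the cytoplasm by inhibitors and, once freed, turns on cytokines and their feedback regulators. Of 59 tested genes, 23 were higher and 2 lower (median 0.38; 21 and 2 without replicate 2). The adaptor TRAF1 rose from 54.0 and 55.2 to 194 and 202 and the precursor subunit NFKB2 from 222 and 251 to 661 and 818. The chemokine CXCL16 rose by 1.93 and the adhesion receptor ICAM1 by 1.08. CXCL8, interleukin 8, read 226 and 216 in the control and 596 and 636 with the mimic, yet 209 to 4939 on the inhibitor arrays, so that against the inhibitors it was lower (-0.73, limma adjusted p = 0.00411). Over the list, 14 genes were lower and 17 higher against the inhibitors. The 2 lower genes were SOCS3, a feedback inhibitor of cytokine signaling (-1.10), and the death ligand TNFSF10, which had a log2 fold change of -1.04 against the control and -0.03 against the other mimics. ZC3H12A, an RNase that limits inflammatory messengers, is in no list and rose by 2.18.

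**Figure D4:**
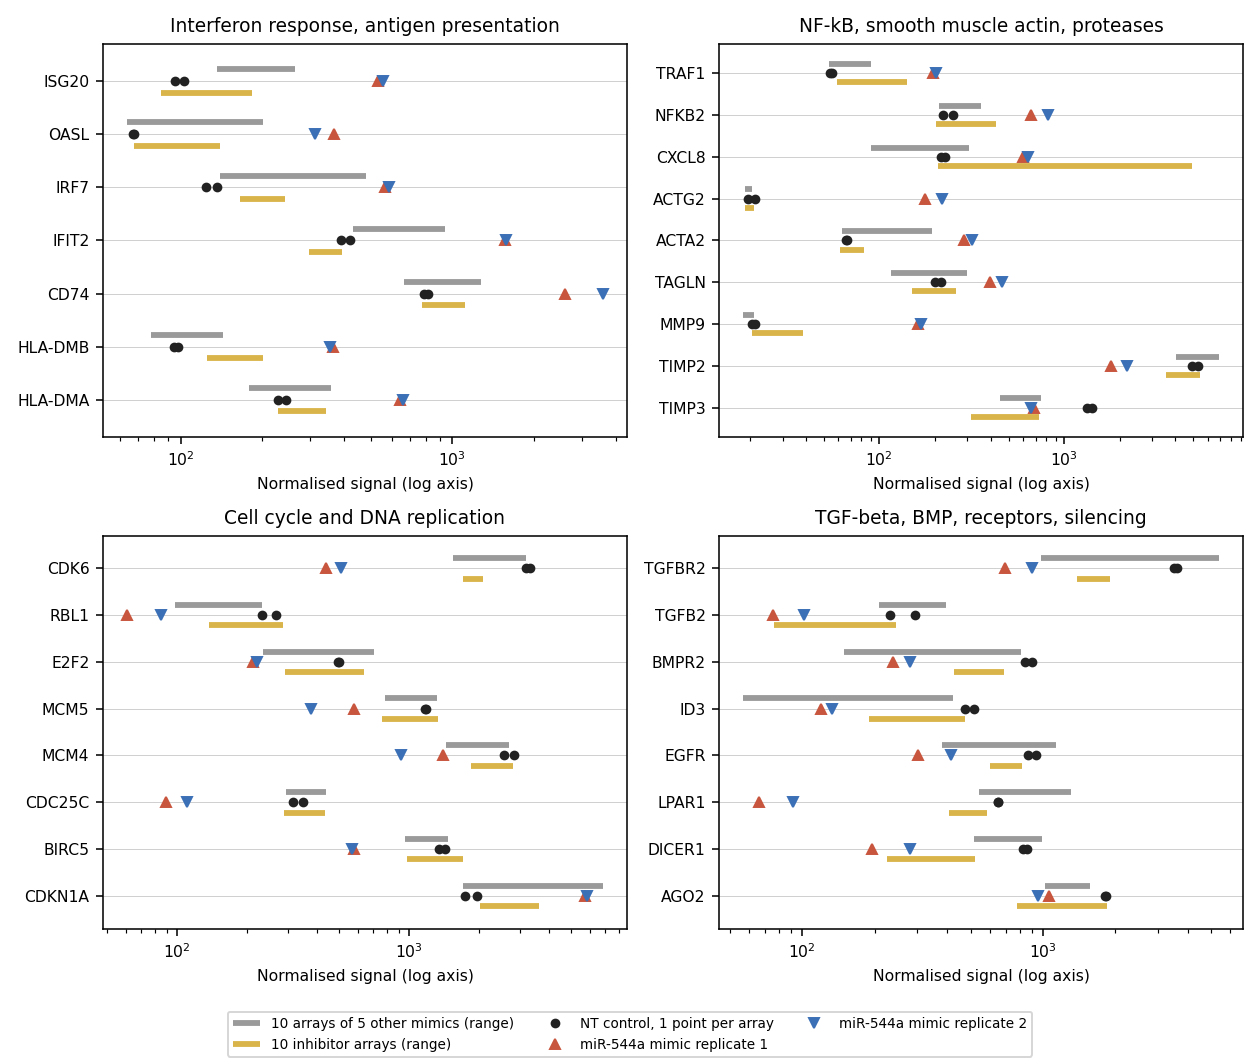
Normalised signal (log axis) of 32 named genes. Black points are the 2 NT control arrays, triangles the 2 miR-544a mimic arrays, grey bars the range over the 10 arrays of the other 5 mimics and yellow bars the range over the 10 inhibitor arrays. ACTG2 and MMP9 stand above every other array, LPAR1 and CDK6 below, whereas CXCL8, TIMP3, ID3 and CDKN1A lie within the range of another group.

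Serum response factor (SRF) drives actin and smooth muscle genes when actin polymerises. Of 22 tested, 8 were higher and 1 lower (9 and 1 without replicate 2). Beside ACTG2, the smooth muscle actin ACTA2 rose from 67.1 and 65.8 to 289 and 316, the tropomyosin TPM2 by 1.29, the actin-binding TAGLN by 1.05 and SRF itself by 0.62 on the log2 scale. SRF was called against neither the other mimics (0.45) nor the inhibitors (0.40). The tropomyosin TPM1 fell by 0.71, and was not called against the inhibitors (-0.27). The early response genes EGR1 and JUNB rose by 1.33 and 1.34, among 5 higher and 1 lower of 21.

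Of 54 proteases of the cell surface and their inhibitors, 16 were higher and 6 lower. Beside MMP9, the membrane protease ADAM8 rose by 1.38, the lysosomal cathepsin CTSV by 1.23 and the cystatin CST1 by 1.66. Of 18 genes of the plasminogen system and other serine proteases 7 were higher and none lower, of 18 metalloproteases 3 were higher and 1 lower, and of 18 inhibitors, which include CST1, 6 were higher and 5 lower. TIMP2, an inhibitor of matrix metalloproteases, fell from 4885 and 5282 to 1791 and 2185, below every other array. TIMP3 read 1414 and 1332 against 685 and 663, but the other mimics read 450.2 to 753 and the inhibitors 315 to 731, so its log2 fold change was positive against both, 0.14 and 0.42, neither called. RECK, a membrane inhibitor of these proteases, fell by 0.66 against the control and was called higher by 0.56 against the other mimics.

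Extracellular matrix genes were called in both directions, 12 lower and 10 higher of 61. Thrombospondin THBS1, which activates latent TGF-beta, fell from 4710.1 and 4038 to 1824 and 1500.5. EFEMP1 fell by 1.35, MATN2 by 1.30 and the TGF-beta-induced adhesion protein TGFBI by 1.29, while the proteoglycan AGRN rose by 1.27 and the collagen cross-linking LOXL1 by 1.02, a call that was lost without replicate 1 of the control. AGRN was not called against the other mimics (0.41), nor EFEMP1 against the inhibitors (-0.39). Junction and adhesion genes gave 13 lower and 11 higher of 65, with the adhesion molecule ALCAM lower by 1.75 and NECTIN3 by 1.18, and plakoglobin (JUP) higher by 1.11 and MPZL2 by 2.23. Among integrins and focal adhesion genes 5 were lower and 4 higher of 41, shares near those of all genes. NECTIN3 (-0.41) and CAV1 (-0.45) were not called against the inhibitors. Caveolin CAV1 fell by 0.68 against the control and the integrin chain ITGA10 rose by 1.84. Of the epithelial-mesenchymal list, 1 gene was lower and 3 higher of 21, and the lower one was FOXQ1. Its factors SNAI2 (-0.37, limma adjusted p = 0.189) and ZEB1 (-0.54, adjusted p = 0.112) were not called.

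Entry into the cell cycle requires that cyclin-dependent kinases inactivate the retinoblastoma proteins and free the E2F factors. Of 26 genes, 8 were lower and 3 higher, with the same counts without replicate 2. Beside CDK6, the retinoblastoma family member RBL1 fell from 266 and 232 to 60.7 and 84.8, E2F2 from 496 and 492 to 212 and 221, and RB1 by 1.20 on the log2 scale, a call lost without either control array or without replicate 1 of the mimic. CDKN1A, the p21 inhibitor of these kinases, rose from 1737 and 1961 to 5693 and 5858 (1.65, SE 0.11, limma adjusted p = 3.16e-08). CCND2 and E2F5 were the others that rose. E2F5 was not called against the other mimics (0.46), nor RB1 against the inhibitors (-0.63).

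DNA replication genes were lower in 16 and higher in 2 of 50 (median -0.29; 15 and 1 without replicate 2). Origin licensing, which loads the MCM helicase onto DNA before S phase, had 7 lower and none higher of 15. MCM5 read 1183 and 1168 against 579 and 376 and MCM4 2822 and 2566 against 1402 and 923, and TIMELESS, which stabilises the fork, fell by 1.03. The ribonucleotide reductase subunit RRM2 went the other way, from 175 and 136 to 517 and 389, but was lower by 0.12 against the other mimics and by 0.24 against the inhibitors, neither called, and its call was lost without replicate 2 of the control. Of 58 mitosis genes 9 were lower and 1 higher. CDC25C, the phosphatase that starts mitosis, fell from 315 and 350.1 to 89.7 and 109.8, survivin (BIRC5) from 1348 and 1420 to 576 and 566, and the kinase NEK2 by 1.26. DNA repair gave 6 lower and 1 higher of 30, with UNG lower by 0.97. Histone genes were called both ways, 7 lower and 5 higher of 24, with H2BC12 lower by 1.46 and H4C8 higher by 1.47 (0.26 and not called against the inhibitors). Histone genes are near-identical copies, and their probes may not tell them apart. Among p53 targets 6 were higher and 3 lower of 22 (3 and 3 without replicate 2), CDKN1A and TP53I3 (1.10) the highest. Apoptosis genes gave 9 higher and 2 lower of 38 (5 and 2 without replicate 2), among them the death receptor TNFRSF10B (0.90) and the inflammatory caspase CASP4 (1.18).

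TGF-beta signals through paired receptors and SMAD proteins to slow division and build matrix. Of 37 tested genes, 8 were lower and 5 higher. Besides TGFBR2, the ligand TGFB2 fell from 293 and 232 to 75.5 and 101, while TGFB3 rose from 31.6 and 30.8 to 69.9 and 104. The activin receptor ACVR1B rose by 0.85 and PMEPA1, a feedback inhibitor, by 1.11. SMAD3 (-0.18, limma adjusted p = 0.564) and SMAD2 (0.45, adjusted p = 0.079) were not called. In the related BMP pathway, 7 of 12 genes were lower and none higher (median -0.60; 5 without replicate 2). The receptor BMPR2 read 846 and 903 against 238 and 279 and ID3, a direct BMP target, 519 and 474 against 120.0 and 133. Against the other mimics ID3 was not called (-0.37). The inhibitory SMAD6 fell by 0.96 against the control and was higher by 0.32, not called, against the other mimics.

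The Hippo list had 9 lower and 5 higher of 28, and 11 and 1 without replicate 2. Its 12 targets of YAP and TAZ had a median of -0.62. ASAP1 fell from 3588 and 3469 to 1040 and 1218 and the secreted FSTL1 from 1041 and 1113 to 334 and 406, while the clotting initiator F3 rose by 0.86. Of 35 Wnt genes, 7 were lower and 5 higher. The inhibitor DKK1 read 3851 and 4191 against 1470 and 1558, SOST was at least 2.93-fold lower but not called against the other mimics (-0.29), and the receptors FZD2 and FZD4 had log2 fold changes of -1.09 and 1.57. Among receptor tyrosine kinases and growth factors 5 were lower and 3 higher of 37, with EGFR going from 865 and 933 to 303 and 416 and VEGFA, the angiogenic factor, from 180.4 and 182 to 626 and 829. The G protein-coupled receptor list had 8 lower and 5 higher of 50, among them the oxytocin receptor OXTR (-1.54) and the vasoconstrictor EDN1 (-1.36). In the PI3K list 6 were lower and 3 higher of 36, led by the phosphatase INPP4B (-1.64) and the kinase SGK1 (1401 and 1427 against 474 and 607). The RAS and MAPK list had 4 lower and 8 higher of 43, with the kinase MAPK8 at -1.10 and the feedback inhibitor SPRY4 at 1.02.

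The machinery that makes and uses microRNAs was itself lower in 5 and higher in none of 29 genes. DICER1, which cuts precursors to mature microRNAs, read 855 and 828 against 194 and 281 (-1.85, SE 0.24, limma adjusted p = 2.53e-05). The decapping enzyme DCP2 fell by 1.41, the helicase DDX5 by 1.02 and the Argonaute AGO2 by 0.85. Against the inhibitors DICER1 was still lower, by 0.83, and AGO2 was called against neither the inhibitors (-0.14) nor the other mimics (-0.35). Messenger export and splicing genes were lower in 14 and higher in 4 of 71, but in 9 and 4 without replicate 2, and HNRNPL (1035 and 888 against 594 and 321) and SRSF10 lost their call. Translation factors gave 6 lower and 1 higher of 33, with EIF1AX, which scans for the start codon, lower by 1.97 and the termination factor ETF1 higher by 1.20. ETF1 was called against neither the other mimics (0.35) nor the inhibitors (0.16). Nuclear transport was lower in 6 and higher in 3 of 55, with the pore protein NUP50 lower by 1.27 next to IPO5. Tubulins and cilium genes gave 14 lower and 6 higher of 56, with the intraflagellar transport protein IFT20 lower by 1.84, the Hedgehog factor GLI2 by 1.44 and the motor KIF5B by 1.33. Of its 22 tubulins and microtubule proteins 9 were lower, and 5 without replicate 2.

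Glycolysis and hypoxia genes were higher in 22 and lower in 3 of 55 (median 0.40; 17 and 2 without replicate 2). ANKRD37, a target of the hypoxia-inducible factors, rose from 206 and 181 to 751 and 901, the aldolase ALDOC by 1.31 and the enolase ENO2 by 1.28. The hypoxia factor EPAS1 itself fell by 1.02, a call lost without replicate 1 of the mimic. The glycolytic mutase PGAM1 (5491 and 5768 in the control, 4753 and 2772 with the mimic) was called lower, but not without replicate 2 of the mimic nor without either control array. In the NRF2 and heme list, which holds HMOX1, 5 genes were higher and 3 lower of 38. NQO1 (-0.15, limma adjusted p = 0.348) and TXNRD1 (-0.20, adjusted p = 0.377), classic NRF2 targets, were not called, although TXNRD1 was called lower against the other mimics (-1.05) and the inhibitors (-0.95). GCLM rose by 0.73, and without replicate 2 its fold was 0.66 and the call was lost (limma adjusted p = 0.0799), as it was without replicate 1 of the control and against the inhibitors. A dimmer GCLM probe rose by 1.12. The iron exporter SLC40A1 fell by 1.04, but was not called against the other mimics (-0.37) or the inhibitors (0.30). Targets of the stress factor ATF4 included 6 lower and 2 higher of 21. Asparagine synthetase ASNS read 2982 and 3126 against 1527 and 1626, the serine synthesis enzymes PHGDH and PSAT1 fell by 1.07 and 0.80 and were called against neither the other mimics (-0.09 and -0.33) nor the inhibitors (-0.21 and -0.26). ASNS was called against the other mimics and not against the inhibitors (-0.41). CTH fell by 1.09, while the ER chaperone HSPA5 rose by 1.02. Amino acid and nucleotide metabolism as a whole had 15 lower and 8 higher of 73, and NNMT, a nicotinamide methyltransferase, fell by 1.58 against the control but had a log2 fold change of -0.13, not called, against the other mimics.

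The counts of the remaining lists follow. Mitochondrial genes were the quietest large list, with 12 lower and 10 higher of 185, and ribosomal proteins had 2 lower and 5 higher of 62. Among the latter RPS23 rose from 487 and 531 to 2067 and 2354, but it read 1146 to 1560 with the other mimics and 1344 to 1676 with the inhibitors, so that it was raised by only 0.68 and 0.54 against these. The respiratory chain gene NDUFB5 was alike, 1762 and 1739 in the control, 5057 and 5282 with miR-544a and 3545 to 5425 in the other mimics, and it was not called against them (0.23) or the inhibitors (0.18). Lower and higher counts were 15 and 15 of 131 for membrane traffic, 13 and 9 of 109 for ubiquitin and proteasome, 12 and 9 of 84 for cholesterol and lipid metabolism, 8 and 9 of 78 for chromatin modifiers and 8 and 9 of 77 for autophagy and lysosome. They were 7 and 4 of 51 for glycosylation, 4 and 10 of 52 for ion channels, 4 and 7 of 34 for ephrins and semaphorins, 3 and 3 of 21 for Notch and 3 and 0 of 27 for heat shock proteins. Small nucleolar RNAs had 3 and 7 of 38, metallothioneins and metal transport 3 and 3 of 12, ribosome biogenesis 1 and 2 of 30 and tRNA synthetases 2 and 0 of 18. Without replicate 2 of the mimic the higher genes fell in number from 9 to 5 for chromatin modifiers, 10 to 6 for ion channels, 7 to 4 for ephrins and semaphorins and 3 to 1 for metallothioneins, nuclear transport and receptor tyrosine kinases. They fell from 8 to 5 for amino acid metabolism and from 5 to 3 for Wnt, G protein-coupled receptors and the unfolded protein response list (5 higher and 6 lower of 39). The lower small nucleolar RNAs and heat shock proteins fell from 3 to 1 each. Single genes stood out in several lists: the proton pump subunit ATP6V1D read 2750 and 2739 against 738 and 769, the lipid enzyme ACSL4 fell by 1.69, the chloride channel protein CLIC4 by 1.68, the fucosyltransferase FUT4 by 1.62 and the ubiquitin ligase scaffold CUL4B by 1.39, and RAB38 rose by 1.51.

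Promoters of 8 lists were searched for the motif of a factor known to act on such genes. Windows of 300 bases, 250 before to 50 after the start of each gene, were taken from RefSeq (GRCh38.p14), and 8 pairs of motif and list were searched on both strands, chosen after the counts of the lists had been seen. The interferon-stimulated response element stood in 996 of 27305 promoters (3.65%) and in 22 of the 31 interferon genes with a window, 10 of them among the 15 called higher. Windows were matched for under 80% of that list and of all genes tested, so these shares were not compared. It stood in 7 of 19 antigen presentation genes, 2 of them among the 10 called higher. The CArG box of SRF stood in 1.29% of all promoters and in 6 of 19 genes of its list, and the E2F motif TTTCCCGC in 1.66% of all and in 11 of 44 replication genes, of which 3 were among the 12 lower ones with a window. The kappaB motif (10.8% of all) stood in 15 of 47 NF-kB genes. The E2F motif stood in 1 of 48 mitosis genes and the hypoxia motif ACGTG (21.6% of all) in 20 of 48 glycolysis and hypoxia genes. The GC box GGGCGG (44.6% of all) stood in 30 of 53 ribosomal protein genes (56.6%). Shares of all promoters are not those of the genes tested. Of the 9993 tested genes with a window, 68.3% had the GC box, 26.7% ACGTG and 12.8% the kappaB motif. The E2F motif stood in 2.58% of them, the interferon element in 3.02% and the CArG box in 1.06%. The sites of the most raised interferon gene and of ACTG2 are printed with the motif in capitals, as examples of the letters found:
ISG20: acaaactaGAAACTGAAAcagggtcg
ACTG2 first site: aaaaaccaCCTTATATGGtaatattg
ACTG2 second site: tcagctggCCTTTTTAGGgactttgt
The ISG20 site lies at chr15:88638939-88638964 and those of ACTG2 at chr2:73892890-73892915 and chr2:73892927-73892952, all on the plus strand upstream of the start. A match is a description of the letters and not of binding.

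The share of genes called varied with the length of the gene on the chromosome. Of the 2504 shortest genes 6.87% were lower and 16.9% higher, and of the 2504 longest 15.9% were lower and 11.1% higher. Without replicate 2 the same shares were 4.95% and 13.9% in the shortest and 15.7% and 7.39% in the longest. With the inhibitor arrays as the reference they were 9.78% and 11.8% in the shortest and 11.3% and 12.5% in the longest. With the other mimic arrays as the reference they were 7.87% and 15.8% in the shortest and 15.4% and 13% in the longest. By mean level, the share of probes called lower was 1.45% in the dimmest of 5 equal classes, then 7.46%, 13.1% and 14.9%, and 12% in the brightest.

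**Figure D5:**
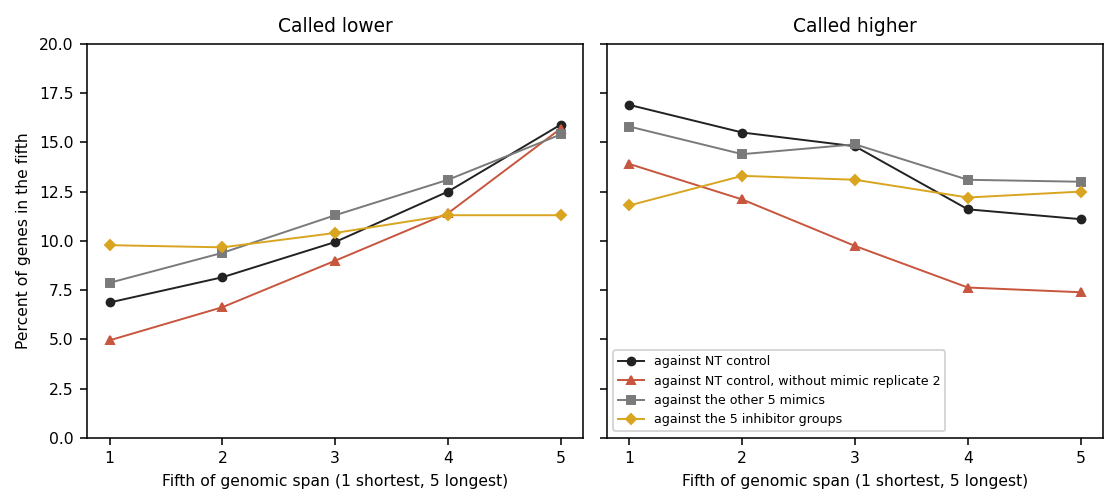
Percent of genes called lower (left) or higher (right) with the miR-544a mimic in 5 classes of equal size by genomic span, from shortest to longest, for 4 choices of reference or arrays. Against the NT control the lower share rises from 6.87% to 15.9%, and against the inhibitor groups it lies between 9.67% and 11.3%.

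Probes of 1 gene did not always move together. Of 3408 genes with at least 2 tested probes, 197 had all probes lower and 155 all higher, 480 had some lower and 455 some higher, 2105 had none called, and 16 had probes called in opposite directions. POLR1D, a subunit shared by RNA polymerases, had a log2 fold change of -1.51 on its brightest probe (3256 and 3166 against 1134 and 1127) and 0.82 on another. TMEM64 had 1.56 and -0.59, and RBM12 1.75 on a probe whose 2 mimic arrays were close and -1.59 on one with 198 on replicate 1 and 45.1 on replicate 2. Which transcripts these probes read was not examined here.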

How the data were processed

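RNA of MDA-MB-231 cells was measured on Illumina bead arrays, with groups as the labels give them. The authors deposited the bead signal intensity of each probe before background subtraction and normalization, along with the detection p-value of every probe on every array. They also deposited log2 values, made in BeadStudio by background subtraction and quantile normalization, which served as an alternative. The labels and the published methods name different RNA extraction kits. Here, intensities were corrected with neqc (offset 16, quantile normalization, log2) in limma 3.58.1 under R 4.3.3, and 12 group means were fitted to the 24 arrays, with Benjamini-Hochberg adjustment over 22803 probes. Of the probes, 30109 carry 1 gene symbol, 8 several and 17192 none. A group detected on neither array gives its fold as a bound, against the level at the detection threshold.

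The members and lists were chosen with earlier results of these data known. The rule for named genes takes the candidates, the 25 lowest and highest called genes, the leading members of each list and genes whose probes were called both ways. These are 364 genes in all, and the text prints some of them, chosen by role after their values were seen. The 25 lowest and highest also had to be detected on both arrays of the brighter group. Their mimic arrays had to lie on the same side of both control arrays, so this separation is not a result. Tested on simulated data for this comparison, limma recovered 49, 41, 44 and 48 of 50 probes changed by -2, -1, 1 and 2, with 5 false calls among 22603. The simulation gave a probe the same normal noise in all groups and changed only brighter probes. It held no array like replicate 2 of the mimic and no shift of the control arrays. Its false calls therefore do not count those that such arrays would bring. The number of arrays limits the precision. Plotting used Python 3.11.15 with matplotlib 3.10.9. The alternatives were other backgrounds, scalings, filters, references and tests, and each array left out. Of the 51 lists, 1 is not reported here.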

Additional observations from a re-analysis of the deposited data

How the results depend on the processing

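The counts of called probes, 2235 lower and 2559 higher, stayed within 1.5 times under plain background subtraction, the authors' table of log2 values, median scaling, no filter, a stricter filter and both other references. The probes behind the counts were not the same. Against the inhibitors 63.3% of the lower and 58.9% of the higher calls held, and against the other mimics 71.4% and 63.5%. By brightest probe, 775 of 1338 lower and 880 of 1753 higher genes were called the same way against both. With no background correction the called probes numbered 1280 lower and 1301 higher. A fit of the 4 arrays alone gave 1194 and 1358. SAM (significance analysis of microarrays) on those 4 arrays gave 991 and 620, and a fold of 2 gave 716 and 601. Genes of any list numbered 325 lower and 332 higher, 207 and 212 in the fit of the 4 arrays and 133 and 99 at a fold of 2. With 1 array left out at a time the probes ranged from 1576 to 2942 lower and from 1825 to 3268 higher. In these fits the lone array of a group is assumed to vary like the other groups. The deviations of same-numbered arrays of control and mimic had a correlation of 0.0231. Over all 66 pairs of groups it ran from -0.485 to 0.521, with 27 pairs over 0.1. With 2 arrays per group this value cannot tell whether the numbers pair the samples. With the replicate block the counts were 2249 and 2563.

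Of the 364 genes covered by the naming rule, 360 were called, 142 of them under every alternative, and 24 changed direction under at least 1. All reversals arose when another reference took the place of the NT control, and the cause was not tested. With the inhibitor arrays as the reference the log2 fold changes were ADAM10 0.003557, CANX -0.1946, CEBPB -0.1829, CXCL8 -0.7302, H1-2 -0.006839, ITGA6 0.1319, KIF4A -0.3193, MT1X -0.6868, ODC1 -0.407, RCAN1 -0.1705, RECK 0.4485, RRAS2 -0.06775, RRM2 -0.2379, SLC40A1 0.2968, SQSTM1 -0.0391, TIMP3 0.4161 and YOD1 0.18. With the other mimic arrays they were BBS4 -0.2585, CILK1 0.6116, HSPA4 0.02829, KIF4A -0.4851, MST1R -0.1162, PGAM1 0.0672, RECK 0.5561, RRAS2 -0.1804, RRM2 -0.115, S100A2 0.1461, SMAD6 0.325 and TIMP3 0.1437. A chance change in the 2 control arrays enters every value against them. Probes near background, and the 380 probes low on replicate 2 of the mimic, are the least certain.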
